A study of Sus scrofa with 16 samples.

Results

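The genes of antigen presentation, with the swine leukocyte antigen (SLA) genes of the pig major histocompatibility complex, were followed in the myocardium of pigs after ischemia/reperfusion (IR) or sham surgery. The members were every symbol that starts with SLA- and a list of 25 named genes. Of the 29 names this gives, 27 had an entry among the 22629 genes listed, and *TAP2* and *PSME2* were not listed under those names. The 5 SLA symbols were the class I gene *SLA-5* and the class II genes *SLA-DQB1*, *SLA-DMA*, *SLA-DMB* and *SLA-DOA*. The entry ENSSSCG00000001231 carries no symbol and did not match the gene table used here, so it is left unnamed. It and *SLA-5* were chosen by their high ratio of IR to sham in these same samples, and their IR against sham values are therefore a description with no test. The other 25 members were not chosen by that contrast.

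Cells display peptides on their surface by a class I and a class II route. In the class I route, proteins are cut by the proteasome, the peptides enter the endoplasmic reticulum through the TAP transporter, are trimmed, and are loaded on a class I heavy chain held together with beta-2-microglobulin. In the class II route, used by professional antigen presenting cells such as macrophages, dendritic cells and B cells, class II chains assemble with the invariant chain CD74 and are loaded in endosomes, and interferon gamma is known to raise many genes of both routes.

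The pigs were White Yorkshire-Landrace farm animals operated on at 30 days of age. In IR pigs the left anterior descending artery was closed for 1 h and reopened, while in sham pigs it was not closed. Left ventricular tissue was frozen 4 weeks later from the scar zone, below the site of closure, and from the neighbouring border zone. Each of the 4 groups (IR or sham, scar or border zone) held 4 pigs, 2 of each sex, and each of the 8 pigs gave both zones. The IR pigs were females 2 and 14 and males 9 and 11, and the sham pigs were females 4 and 5 and males 12 and 13. Values of single pigs are given in that order throughout. According to the paper, the scar zone of IR pigs held both scar and muscle. How much scar each sequenced sample held is not given. In sham pigs, whose operation placed a suture and left it untightened, the name gave only the position.

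Total estimated counts per library ran from 15427663 to 49045206. The 4 libraries of male IR pigs 9 and 11 were the deepest, with at least 33521418 counts against at most 27088652 in the other 12. Levels in single pigs are given as CPM, counts relative to the library total after TMM scaling, which sets the bulk of genes equal between libraries. Levels that compare genes are given as TPM, which also takes transcript length into account. In the scar zone library of pig 9 the median gene was 0.54 higher on the log2 scale in TPM than in CPM, relative to the average library, so pigs are compared in CPM. The scar zone library of female pig 14 held 4.48 CPM of the Y-linked gene *DDX3Y*, against 0.389 to 1.23 in the other 7 female libraries and 68.4 to 103 in the 8 male ones, and its part in the other values of that library was not tested. Fewer cells of a type and less RNA per cell cannot be told apart in these bulk samples.

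ENSSSCG00000001231 was higher in every IR pig than in every sham pig, in both zones. The scar zone values were 43.9, 59.1, 87.1 and 63.8 CPM in IR pigs and 19.9, 6.72, 16.98 and 14.1 CPM in sham pigs. The border zone values were 37.6, 53.7, 111 and 65.3 CPM against 12.3, 5.87, 16.7 and 16.1 CPM. Male pig 9 was the highest IR pig and female pig 5 the lowest sham pig in each zone. Group means were 63.5 ± 17.9 and 14.4 ± 5.66 CPM in the scar zone and 66.98 ± 31.6 and 12.7 ± 4.97 CPM in the border zone (SD, n = 4). As a description, the log2 fold change of IR over sham was 2.14 (standard error 0.32) for the scar and 2.39 (standard error 0.37) for the border. When both male IR pigs were left out, a choice made after seeing the data, it was 1.84 and 1.84.

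*SLA-5*, a class I heavy chain gene, was at a lower level and overlapped between the groups. Its scar zone values were 2.98, 7.81, 11.3 and 7.83 CPM in IR pigs and 1.95, 4.55, 1.92 and 1.39 CPM in sham pigs. Its border zone values were 1.496, 9.41, 15.7 and 6.84 CPM and 1.75, 5.06, 1.75 and 1.11 CPM. IR pig 2 lay within the sham range both times, while pigs 14, 9 and 11 lay above every sham pig. The log2 fold change, again a description, was 1.62 (standard error 0.46) for the scar and 1.79 (standard error 0.64) for the border, and 1.14 and 1.17 without male IR pigs. Without sham pig 5 it was 2.10 and 2.45, and without IR pig 9 it was 1.33 and 1.29.

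**Figure D1:**
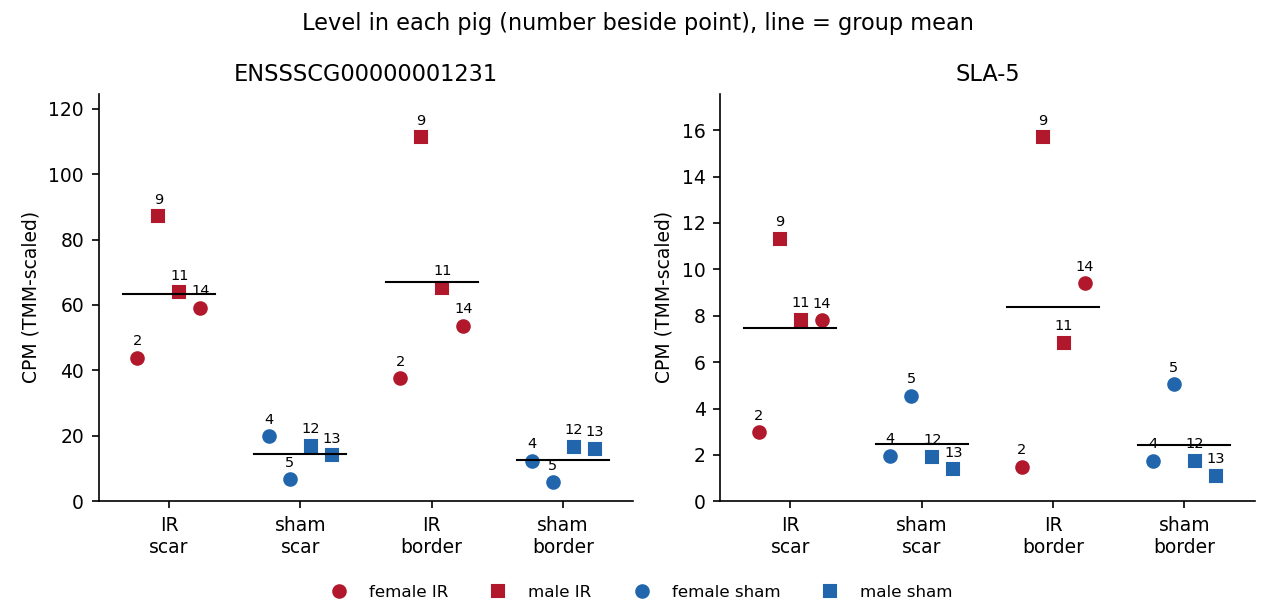
CPM (TMM-scaled) of ENSSSCG00000001231 and *SLA-5* in each pig, by surgery and zone, with circles for females, squares for males and a line at the group mean. The 4 IR pigs lie above the 4 sham pigs for ENSSSCG00000001231 in both zones, and for *SLA-5* IR pig 2 lies among the sham pigs.

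The entries did not share 1 order of pigs. Sham pig 5 had the lowest ENSSSCG00000001231 but the highest *SLA-5* of the sham pigs, whichever zone was read. In TPM, *SLA-5* made up 30.7% (scar) and 37.0% (border) of the sum of both entries in pig 5, against 2.57% to 11.8% in the other 14 libraries. Pig 5 was at the same time the lowest sham pig for 20 of the 27 members in each zone. The share of all genes lowest in pig 5 was not counted, so whether this is particular to the members was not tested. Estimated counts of both entries departed from whole numbers by over 0.01 in all 16 libraries. Among 11812 genes with at least 20 counts in every library, leaving out the most abundant, 25.3% were whole in none, and so were 10 of the 26 members among them. Fractional estimates arise when reads that fit several transcripts are divided, and which transcripts share reads with these entries was not tested, so their levels are uncertain to that extent. *SLA-DQB1*, *SLA-DMA* and *SLA-DMB* had whole estimates in all 16 libraries and *SLA-DOA* in 3. The sum of both entries was 174 ± 89.9 TPM in IR and 33.5 ± 12.1 TPM in sham scar zones, and 159 ± 89.4 and 29.9 ± 10.1 TPM in border zones (SD, n = 4).

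Whether related SLA genes went the opposite way in the same animals was the question set for these genes. No further class I SLA symbol is listed, so it could be asked only of the class II symbols and the rest of the pathway. All 4 class II SLA symbols had a log2 fold change above 0, from 0.57 to 0.69 in scar and from 0.21 to 0.51 in border zones. Over the 25 members, 23 were above 0 in the scar zone, beside 53.9% of the 14023 genes tested. The border zone likewise had 23 above 0, beside 50.0% of 13728 genes. The exceptions were *RFXAP* and *RFXANK*, subunits of the RFX factor that binds class II promoters. *RFXAP* was at -0.19 (standard error 0.14) for the scar and -0.17 (standard error 0.17) for the border, and *RFXANK* at -0.08 (standard error 0.16) and -0.17 (standard error 0.14). By mean TPM their scar zone ratios of IR to sham were 1.01 and 1.06, so the direction of both depended on the scale there, and *CD1D* was at 0.920 for the border by that measure. The count above 0 depended on the male IR pigs. Without pigs 9 and 11, a choice made after seeing the data, 19 of 25 were above 0 (scar) and 11 (border). The median over all genes was then -0.0019 and -0.0164. Without pig 11 alone, 23 (scar) and 18 (border) were above 0.

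No member was lower in IR pigs by the tests used. At an unadjusted p of at most 0.05, edgeR's quasi-likelihood test gave 0 of 25 members lower in either zone, beside 4.64% (scar) and 1.69% (border) of all genes. With a fold of at least 2 added, it gave 0, as did DESeq2, beside 0.613% and 0.277% of genes. Neither did any member have all 4 IR pigs below all 4 sham pigs, which 2.85% (scar) and 1.22% (border) of genes had.

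Some members were higher in IR pigs before adjustment. At an unadjusted p of at most 0.05 and a fold of at least 2, edgeR gave *PSMB9*, *TAP1* and *IFI30* as higher in the scar zone, 3 of 25 beside 2.74% of all genes. For the border zone it gave *TAP1* and *NLRC5*, 2 of 25 beside 0.517%, where DESeq2 gave *TAP1* and *PSMB9* instead. Without the fold it was 10 of 25 beside 6.57% (scar) and 4 of 25 beside 2.09% (border). After Benjamini-Hochberg adjustment, 0% of genes, and so 0 members, passed with that fold in either zone by edgeR, and DESeq2, which gave 52 (scar) and 2 (border) of all genes at that adjusted p and fold, gave 0 members. Adjusted p-values of the 25 members by edgeR ran from 0.438 to 0.835 (scar) and from 0.988 to 0.995 (border). The median log2 fold change of the 25 was 0.58 for the scar, beside 0.03 over all genes, and 0.32 for the border, beside 2.70e-05. These counts changed when single pigs were left out. The scar zone count of 3 was 0 without pig 5, 11 or 12, 1 without pig 13, 2 without pig 9, 4 without pig 14 and 5 without pig 2. The scar zone median of the 25 was still 0.58 without sham pig 12, and 0.29 without pig 11. A count of 0 therefore need not mean smaller fold changes. The border zone count of 2 was 0 without pig 5, 11 or 13, 1 without pig 4 or 9, and 3 without pig 2 or 14. The scar zone count of 10 without the fold ran from 3 (without pig 5 or 11) to 16 (without pig 2). The border zone count of 4 ran from 0 (without pig 5 or 11) to 10 (without pig 2).

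**Figure D2:**
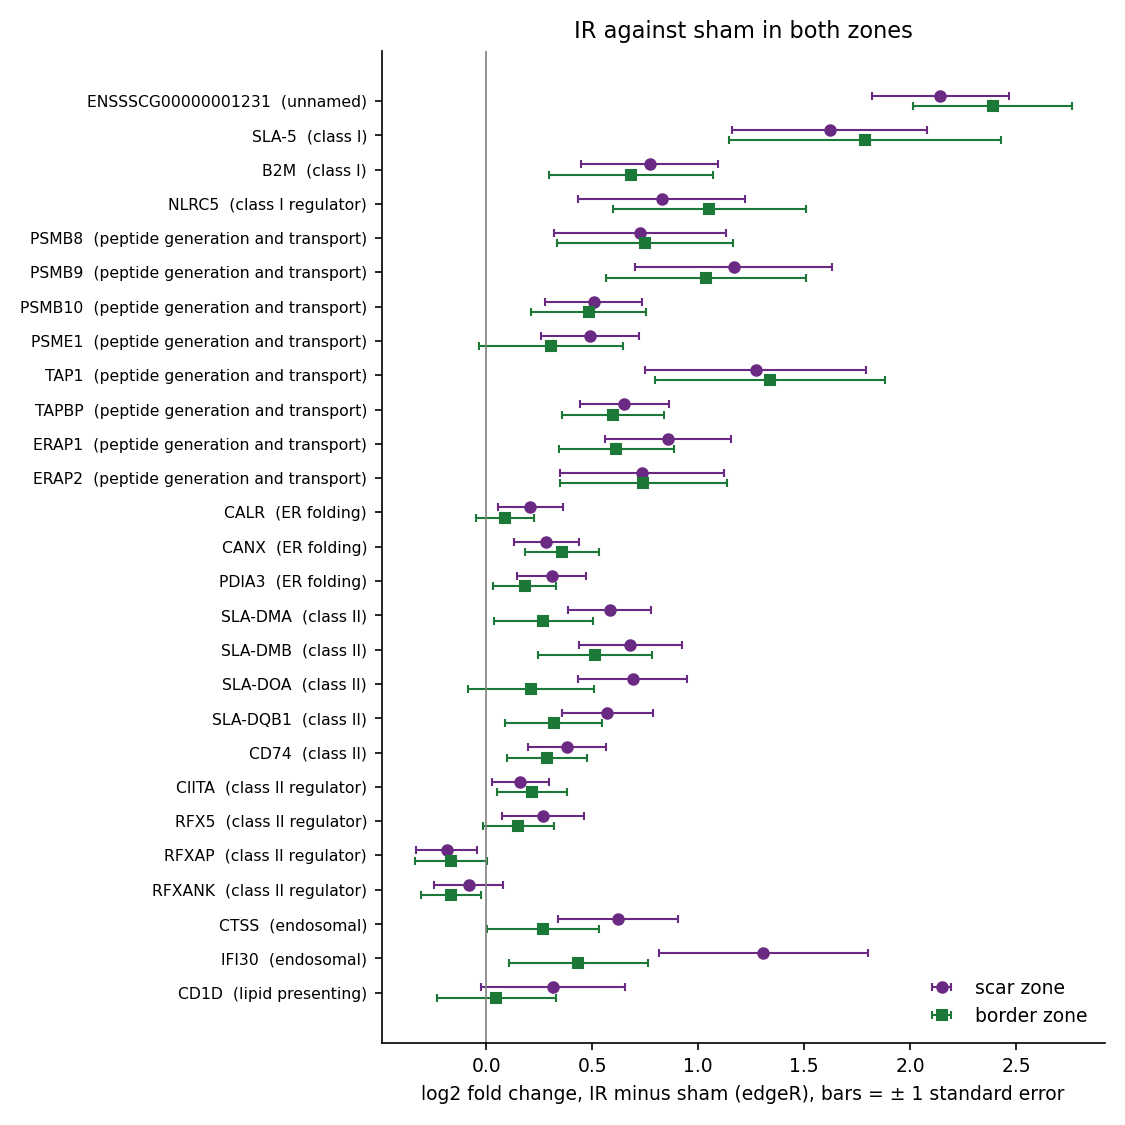
Log2 fold change of IR over sham (edgeR) for each of the 27 members in both zones, with bars of ± 1 standard error. ENSSSCG00000001231 and *SLA-5*, which were chosen by this contrast, stand highest, and *RFXAP* and *RFXANK* are below 0 in both zones.

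*B2M*, which encodes beta-2-microglobulin, had the highest TPM of all members, at 1093 ± 618 in IR and 551 ± 127 in sham scar zones (SD, n = 4). Its scar zone values were 767, 893, 1283 and 2252 CPM in IR pigs and 811, 549, 884 and 806 CPM in sham pigs. The border zone held 798, 851, 1276 and 2711 CPM and 1264, 555, 887 and 803 CPM. Both male IR pigs were above every sham pig, though pig 9 passed sham pig 4 only narrowly in the border zone, female pig 2 lay within the sham range in both zones, and female pig 14 just above it in the scar zone and within it in the border zone. For the scar the log2 fold change was 0.77 (standard error 0.32, edgeR adjusted p = 0.438, exact permutation p = 0.171). For the border it was 0.68 (standard error 0.39, edgeR adjusted p = 0.988, exact permutation p = 0.371). Without pig 11 the log2 fold changes were 0.37 (scar) and 0.15 (border).

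*TAP1*, a subunit of the peptide transporter, had averages over both zones that spanned 10.2-fold between pigs. IR pigs were at 49.7, 49.8, 90.5 and 261 CPM in the scar zone, where sham pigs were at 58.2, 27.3, 51.8 and 50.02 CPM. The border zone repeated this with 49.3, 52.99, 91.4 and 305 CPM against 56.7, 27.98, 58.9 and 53.7 CPM. Both female IR pigs lay within the sham range, pig 9 above it and pig 11 far above it. The log2 fold change was 1.27 (standard error 0.52, unadjusted p = 0.0357, edgeR adjusted p = 0.438) for the scar and 1.34 (standard error 0.54, unadjusted p = 0.0325, edgeR adjusted p = 0.988) for the border. The exact permutation test gave p = 0.286 in both zones, and without pig 11 the log2 fold changes were 0.44 and 0.39.

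*NLRC5*, the transactivator of class I genes, had the same order of IR pigs. They were at 32.00, 38.2, 56.8 and 124 CPM (scar) and 27.8, 34.4, 67.9 and 145 CPM (border), while sham pigs ranged over 24.6 to 43.1 and 25.1 to 42.8 CPM. Both females were again within the sham range. Its log2 fold change was 0.83 (standard error 0.39, edgeR adjusted p = 0.457) and 1.05 (standard error 0.45, edgeR adjusted p = 0.988), and 0.26 and 0.38 without pig 11.

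*TAPBP* encodes tapasin, which bridges the transporter and the class I molecule, and it separated the groups in both zones. Scar zone values were 71.8, 68.1, 77.4 and 135 CPM in IR and 57.4, 52.1, 56.8 and 58.7 CPM in sham pigs. Border zone values were 65.7, 64.4, 78.8 and 144 CPM and 57.8, 52.1, 60.8 and 62.2 CPM, with a narrow gap between the groups. The log2 fold change was 0.65 (standard error 0.21) and 0.60 (standard error 0.24), with an edgeR adjusted p of 0.438 and 0.988. The exact permutation test gave p = 0.0286 for each zone, the smallest that 4 pigs against 4 allow. In TPM the scar zone of IR pig 14 (29.9) lay just under that of sham pig 4 (30.1), so the groups overlapped there on that scale. *TAPBP* and *SLA-DMA* were the 2 of 25 members whose IR pigs were all above the sham pigs in CPM in the scar zone, beside 2.03% of genes, and *TAPBP* the 1 of 25 in the border zone, beside 0.838%.

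*ERAP1* trims peptides in the endoplasmic reticulum. It was at 25.8, 30.98, 43.7 and 74.1 CPM in IR and 24.8, 19.3, 27.7 and 24.9 CPM in sham scar zones, and at 23.5, 29.9, 36.1 and 63.5 CPM and 21.4, 22.9, 29.4 and 26.4 CPM in border zones. Pig 2 was the IR pig within the sham range each time. The log2 fold change was 0.86 (standard error 0.30, edgeR adjusted p = 0.438) and 0.61 (standard error 0.27, edgeR adjusted p = 0.988). It was 0.48 and 0.25 without pig 11, and 0.24 and 0.09 without male IR pigs.

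The other genes of peptide generation were the immunoproteasome subunits *PSMB8*, *PSMB9* and *PSMB10*, the proteasome activator *PSME1*, and *ERAP2*. With *TAP1*, *TAPBP* and *ERAP1* they make 8 genes, all above 0 in both zones, with a median log2 fold change of 0.73 (scar) and 0.68 (border). Of the 8, 4 (scar) and 3 (border) were at an unadjusted p of at most 0.05 by edgeR, beside 6.57% and 2.09% of genes. *PSMB9* was at 9.52, 12.6, 19.1 and 46.4 CPM in the scar zone of IR pigs and 5.89 to 12.99 CPM in sham pigs. The log2 difference between them was 1.17 (standard error 0.47, unadjusted p = 0.0322, edgeR adjusted p = 0.438). For the border it was 1.04 (standard error 0.47, unadjusted p = 0.0518, edgeR adjusted p = 0.988). It was 0.50 (scar) and 0.33 (border) without pig 11, and 0.18 (scar) and -0.07 (border) without male IR pigs. The chaperones of class I folding differed by less, with *CALR* (calreticulin), *CANX* (calnexin) and *PDIA3* (ERp57) at 0.21, 0.28 and 0.31 for the scar and 0.09, 0.36 and 0.18 for the border. None of these 3 reached an unadjusted p of 0.05 by edgeR.

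*SLA-DQB1*, a class II beta chain, made up 65.6% to 72.9% of the summed TPM of the 4 class II SLA symbols in each library. Its scar zone values were 139.9, 176, 183 and 230.2 CPM in IR and 139.7, 78.1, 127 and 147 CPM in sham pigs. Its border zone values were 146, 139, 199 and 212 CPM and 151, 82.9, 182 and 143 CPM. The groups overlapped in both zones, and sham pig 5 was well below the other pigs. The log2 fold change was 0.57 (standard error 0.22, edgeR adjusted p = 0.438, exact permutation p = 0.0571) for the scar and 0.32 (standard error 0.23, edgeR adjusted p = 0.988, exact permutation p = 0.257) for the border.

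*SLA-DMA* and *SLA-DMB* encode the chains of the DM molecule, which helps exchange peptides on class II, and *SLA-DOA* a chain of its modulator DO. *SLA-DMA* was at 28.2, 29.3, 37.8 and 41.8 CPM in IR and 27.7, 15.8, 23.6 and 24.8 CPM in sham scar zones. *SLA-DMB* was at 35.4, 40.6, 56.3 and 70.5 CPM and 34.6, 21.6, 31.5 and 39.3 CPM there. *SLA-DOA* was at 7.11, 9.99, 12.4 and 11.9 CPM and 8.59, 4.07, 7.16 and 5.94 CPM. The groups were apart for *SLA-DMA*, if narrowly in CPM, while in TPM pigs 2 and 14 (35.6 and 34.9) lay under sham pig 4 (36.5), and pig 2 lay among the sham pigs for the others. Border zone values of *SLA-DMA* were 20.6, 24.8, 34.8 and 38.7 CPM and 32.6, 17.6, 26.4 and 22.1 CPM. Those of *SLA-DMB* were 34.8, 35.99, 51.3 and 70.8 CPM and 42.6, 21.3, 41.1 and 30.02 CPM. Those of *SLA-DOA* were 6.08, 7.77, 11.2 and 9.67 CPM and 9.53, 4.19, 10.5 and 5.76 CPM. All 3 genes overlapped between the groups in the border zone.

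For the scar, the log2 fold change was 0.58 for *SLA-DMA* (standard error 0.20, exact permutation p = 0.0286), 0.68 for *SLA-DMB* (standard error 0.24, exact permutation p = 0.0571) and 0.69 for *SLA-DOA* (standard error 0.26, exact permutation p = 0.0857), each with an edgeR adjusted p of 0.438. For the border these were 0.27, 0.51 and 0.21 (standard errors 0.23, 0.27 and 0.30, edgeR adjusted p = 0.988). All 4 class II SLA symbols were at an unadjusted p of at most 0.05 by edgeR in the scar zone, beside 6.57% of genes, and 0 of 4 in the border zone, beside 2.09%, and the interaction test of this difference is given with the zones. Summed over the 4 symbols, TPM was 344 ± 118 in IR and 195 ± 53.4 in sham scar zones, and 281 ± 64.6 and 216 ± 66.5 in border zones (SD, n = 4). The ratio of these means was 1.77 (scar) and 1.30 (border), and 1.51 and 1.27 in summed CPM. The class II genes *HLA-DRA* and *HLA-DOB*, listed under human-style symbols and added after their values were seen, were at 0.62 and 0.59 for the scar and 0.35 and 0.32 for the border.

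*CD74*, the invariant chain, was at 617, 559, 634 and 762 CPM in IR and 653, 376, 449.9 and 500.3 CPM in sham scar zones. It was at 515, 494, 696 and 735 CPM and 610, 371, 551 and 467 CPM in border zones. The groups overlapped, and their log2 fold change was 0.38 (standard error 0.18, edgeR adjusted p = 0.459) and 0.29 (standard error 0.19, edgeR adjusted p = 0.988). *CIITA*, the master regulator of class II transcription, was at 75.7, 66.9, 58.7 and 71.8 CPM in IR and 68.8, 51.6, 56.8 and 67.5 CPM in sham scar zones. It was at 93.4, 64.8, 59.03 and 80.04 CPM and 68.7, 52.4, 65.5 and 69.6 CPM in border zones. Female pig 2 was its highest pig in each zone. On the log2 scale IR pigs were 0.16 (standard error 0.13) and 0.21 (standard error 0.17) higher, a difference with an unadjusted p of 0.261 and 0.224 by edgeR. *RFX5*, the remaining RFX subunit, was at 0.27 and 0.15, and 0 of the 4 class II regulators reached an unadjusted p of 0.05 by edgeR, beside 6.57% (scar) and 2.09% (border) of genes higher at that p.

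*IFI30*, a thiol reductase that opens disulphide bonds of antigens in endosomes, was at 13.8, 11.3, 41.1 and 61.3 CPM in IR and 16.5, 9.84, 10.99 and 14.5 CPM in sham scar zones. It was at 14.96, 9.35, 15.98 and 31.00 CPM and 15.8, 10.3, 10.5 and 16.4 CPM in border zones. Both male IR pigs stood above every sham pig in the scar zone, and pig 11 alone did in the border zone. Its log2 fold change was 1.31 (standard error 0.49, edgeR adjusted p = 0.438, exact permutation p = 0.257) and 0.43 (standard error 0.33, edgeR adjusted p = 0.988, exact permutation p = 0.6). *CTSS*, the protease that cleaves the invariant chain, was at 0.62 (standard error 0.28) and 0.27 (standard error 0.26). *CD1D*, which presents lipids, was at 0.32 (standard error 0.34) and 0.05 (standard error 0.28).

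**Figure D3:**
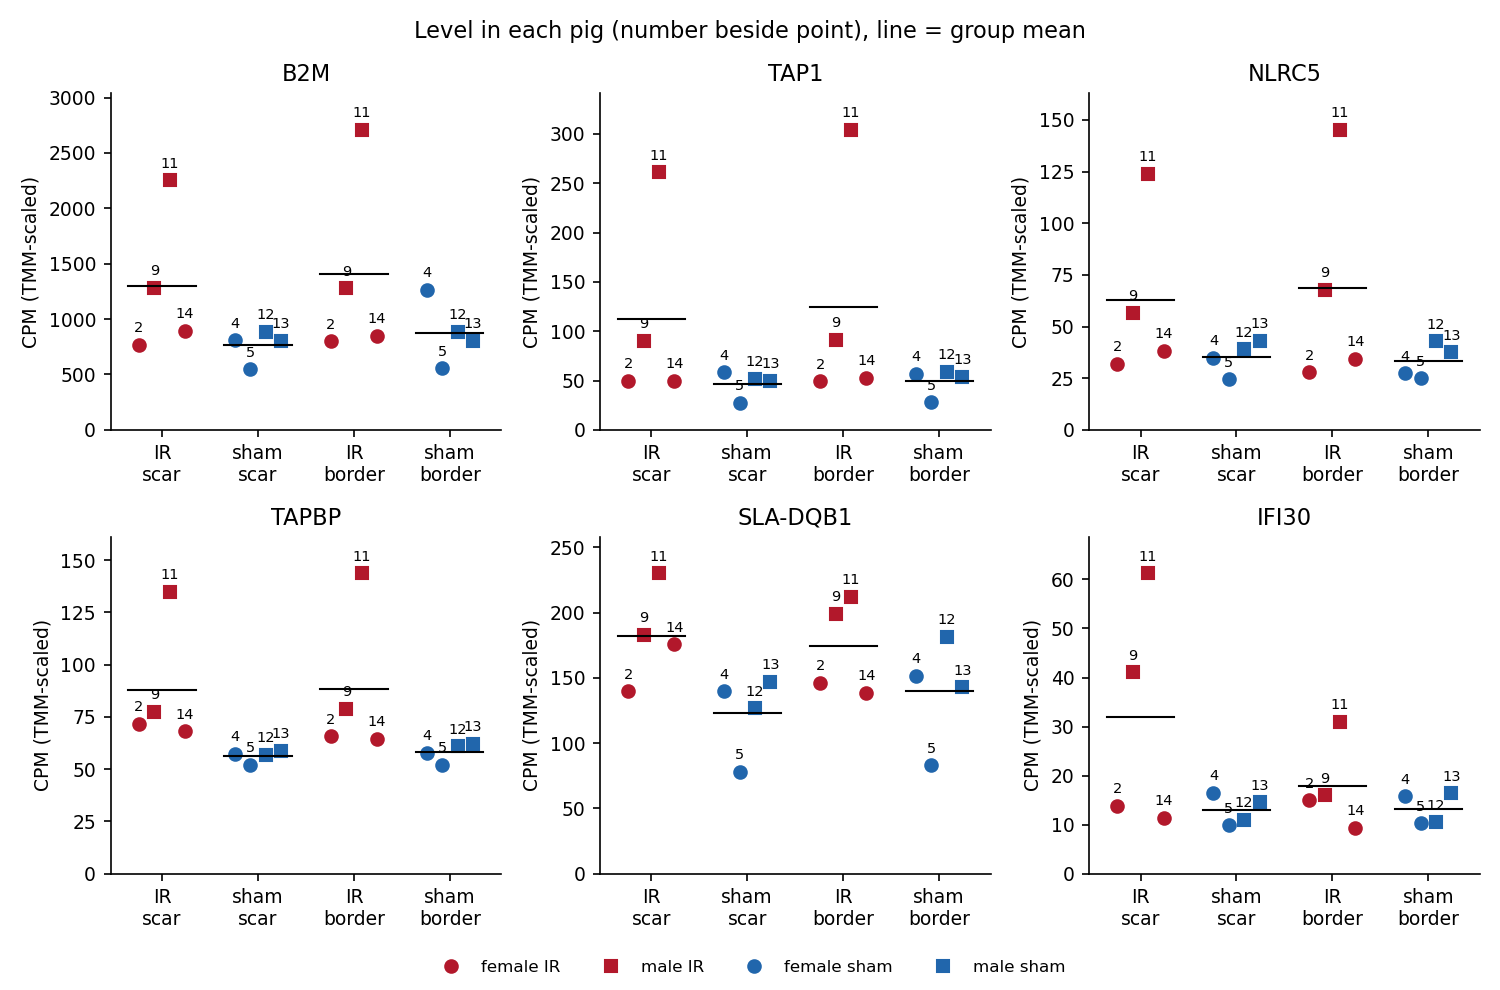
CPM of *B2M*, *TAP1*, *NLRC5*, *TAPBP*, *SLA-DQB1* and *IFI30* in each pig, by surgery and zone, with circles for females, squares for males and a line at the group mean. Pig 11 is the highest IR pig in each panel.

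The members' IR values differed by animal. Both male IR pigs were above all 4 sham pigs for 20 of 25 members in the scar zone, beside 22.0% of genes, and both female IR pigs for 2 of 25, beside 6.22%. For the border zone this was 15 of 25 beside 8.42%, and 1 of 25 beside 5.91%. With pigs 9 and 11 left out, the median log2 fold change of the 25 was 0.12 (scar) and -0.07 (border). In that fit 0 members passed an unadjusted p of 0.05 with a fold of at least 2 by edgeR in either zone, and without the fold 1 did for the scar and 0 for the border. *TAP1* was then at 0.09 and 0.05, *TAPBP* at 0.32 and 0.16, and *SLA-DQB1* at 0.37 and 0.03. The male IR libraries were also the deepest, and after every library was thinned to the smallest total, the counts of higher members at a fold of at least 2 were again 3 (scar) and 2 (border). Depth and the male IR animals go together here, so thinning cannot tell them apart.

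**Figure D4:**
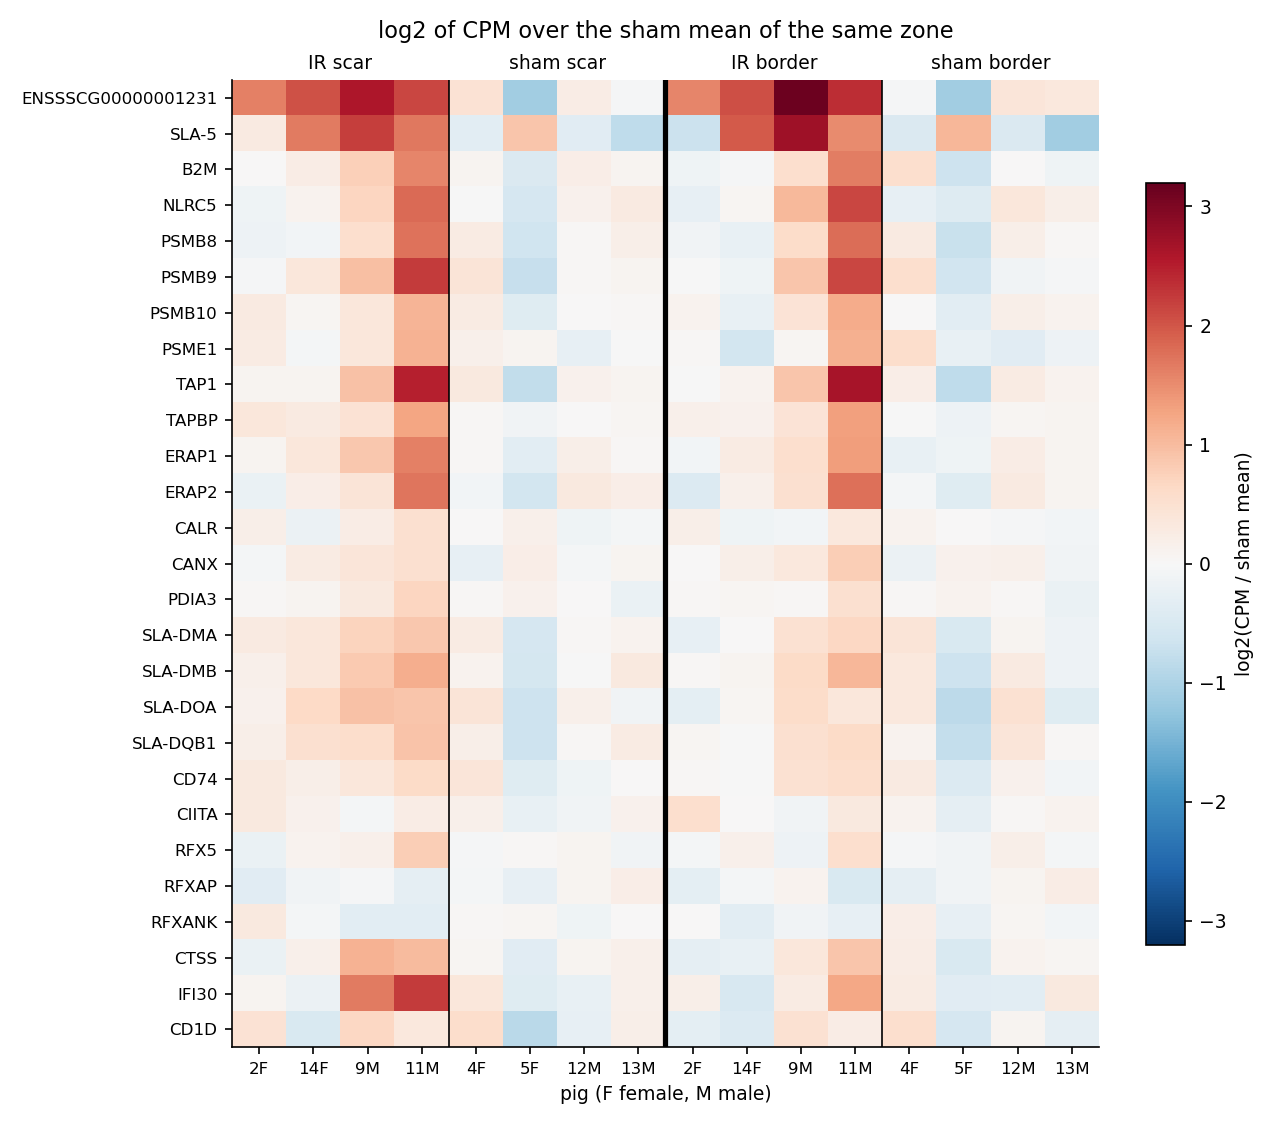
Log2 of CPM over the sham mean of the same zone, for 27 members (rows) in 16 libraries (columns, pig number with F female or M male). The 2 male IR pigs are above 0 over most rows in both zones, and ENSSSCG00000001231 is above 0 in all 4 IR pigs.

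**Figure D5:**
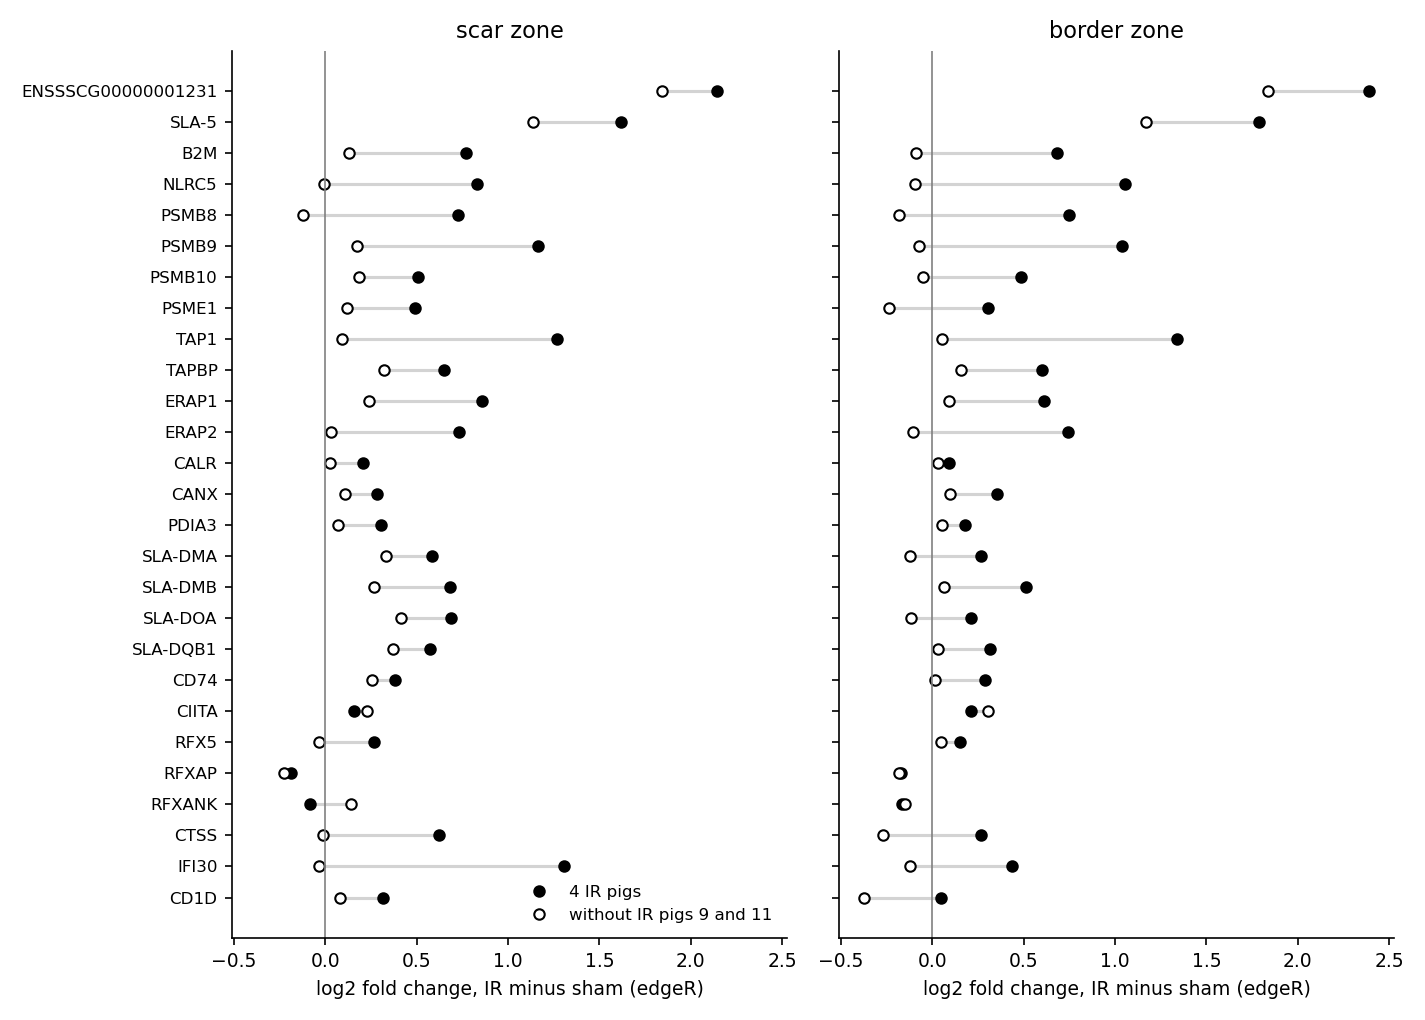
Log2 fold change of IR over sham (edgeR) for each member with all 4 IR pigs (filled) and without male IR pigs 9 and 11 (open), by zone. For the scar, ENSSSCG00000001231 goes from 2.14 to 1.84, *TAP1* from 1.27 to 0.09 and *IFI30* from 1.31 to -0.04.

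The male IR pigs differed from each other. Pig 11 had the highest IR value for 19 of 27 members in the scar zone and for 20 in the border zone, *B2M*, *NLRC5*, *TAP1*, *TAPBP* and the 3 immunoproteasome subunits among them. The share of all genes with pig 11 highest was not counted, so whether this is particular to the members was not tested. Pig 9 was highest for ENSSSCG00000001231, *SLA-5*, *SLA-DOA*, *RFXAP* and *CD1D* in both zones and for *CTSS* in the scar zone. Relative to *B2M* in TPM, ENSSSCG00000001231 was at 8.39% (scar) and 7.08% (border) in pig 11, 20.1% and 25.95% in pig 9, and 13.6% to 19.5% in the females. Sham libraries lay at 2.66% to 6.92%, below every IR library, though only narrowly below the border zone of pig 11. Relative to *TAP1*, pig 11 was at a TPM ratio of 1.23 and 1.08, within the sham range of 1.01 to 1.66, and the other IR libraries were at 3.80 to 6.21. Both ratios are built on the entry chosen by its IR to sham contrast, so they are a description.

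For each of the 27 members the zones of a pig were compared in CPM. ENSSSCG00000001231 differed by a median of 1.14-fold and at most 1.61-fold between the zones of a pig. *SLA-5* differed by 1.17-fold at the median and 1.99-fold at most. The widest gaps between zones among the other members were 2.57-fold for *IFI30* and 1.62-fold for *CTSS*. From the lowest to the highest pig, averages over both zones spanned 15.7-fold for ENSSSCG00000001231 and 10.8-fold for *SLA-5*. These spans take in IR and sham pigs together, and so the contrast that chose both entries. They also run between the extreme pigs, so they cannot be set against the median gap between zones. The IR effect in the scar minus that in the border was -0.24 (standard error 0.53) for ENSSSCG00000001231 and -0.16 (standard error 0.85) for *SLA-5*, given without a test because their ratio in both zones chose them. At an unadjusted p of at most 0.05, 0 of the other 25 members had a larger effect in the scar by edgeR, beside 1.96% of genes. With a fold of at least 2 added, edgeR and DESeq2 gave 0 members, beside 1.32% of genes for a larger and 0.0490% for a smaller effect, and after adjustment 0% of genes passed.

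With the pig as a block, which pairs the zones of an animal, 3 of 25 members had a larger effect in the scar at an unadjusted p of at most 0.05, beside 4.24% of genes. They were *IFI30* at 0.71 (standard error 0.28), *SLA-DOA* at 0.46 (standard error 0.17) and *SLA-DMA* at 0.34 (standard error 0.12), each with an edgeR adjusted p of 0.702. Scar against border within IR pigs gave 0 of 27 members as higher at that p without the block, beside 5.51% of genes, and 5 of 27 with it, beside 10.2%. The 5 were *IFI30* at 0.68 (standard error 0.20), *CTSS* at 0.30 (standard error 0.11), *SLA-DOA* at 0.26 (standard error 0.12), *SLA-DMA* at 0.23 (standard error 0.09) and *ERAP1* at 0.18 (standard error 0.08). Their adjusted p by edgeR lay between 0.179 and 0.273. At a fold of at least 2 without the block, 2.21% of genes were higher and 0.112% lower in the scar of IR pigs, and 0.0420% and 0.0630% in sham pigs, with 0 members among them by edgeR or DESeq2. After adjustment these shares were 0%.

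The interferon gamma pathway was read from a list of 17 genes, of which 14 could be tested. All 14 were above 0 for the scar (median log2 fold change 0.39), beside 53.9% of genes, and 12 for the border (median 0.16), beside 50.0%. *SOCS3*, a feedback inhibitor of cytokine signalling, was at 1.47 (standard error 0.55, edgeR adjusted p = 0.438) for the scar, where IR pigs held 9.87, 6.86, 11.4 and 45.3 CPM and sham pigs 5.497, 8.97, 5.38 and 6.81 CPM. Pig 11 stood far above the other pigs, and for the border the log2 fold change was 0.09 (standard error 0.26). Without both male IR pigs the scar value was 0.34. *IFNG* itself was at 0.628 CPM or less in every library and too low to test.

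The constitutive proteasome list had 14 genes tested, of which 6 were above 0 for the scar (median -0.04), beside 53.9% of genes, and 10 for the border (median 0.06), beside 50.0%. None was higher at an unadjusted p of 0.05 with a fold of at least 2 by edgeR, beside 2.74% (scar) and 0.517% (border) of genes, and without the fold it was 0 beside 6.57% and 1 beside 2.09%. Its difference from the immunoproteasome subunits was not tested. Of 25 other presentation genes, 21 were tested, with 18 above 0 for the scar (median 0.23), beside 53.9% of genes. For the border 15 were above 0 (median 0.09), beside 50.0%. At that p and fold edgeR gave 2 of 21 as higher for the scar (*CTSL*, *UBA7*), beside 2.74% of genes. For the border it gave 1 of 21 (*UBA7*), beside 0.517%. *CTSL*, a lysosomal protease, was at 1.32, 1.698, 8.58 and 13.1 CPM in IR and 1.86, 0.737, 1.88 and 2.099 CPM in sham scar zones, a log2 fold change of 1.92 (standard error 0.70, edgeR adjusted p = 0.438), and at -0.12 without male IR pigs. For the border *CTSL* was at 0.46 (standard error 0.41). *UBA7*, the activating enzyme of the ubiquitin-like protein ISG15, was at 1.49 (standard error 0.58, edgeR adjusted p = 0.438) and 1.46 (standard error 0.63, edgeR adjusted p = 0.988). It was at 0.61 and 0.40 without pig 11, and at 0.53 and 0.05 without male IR pigs.

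The summed levels of some marker lists of other cell types were higher in the male IR pigs too. Summed over 10 macrophage markers, scar zones held 745 to 1179 CPM in male IR, 372 to 444 in female IR and 325 to 530.3 in sham pigs. Border zones held 562 to 572, 351 to 390.5 and 287 to 509.8 CPM. All 10 were above 0 in log2 fold change for the scar, beside 53.9% of genes, and 5 for the border, beside 50.0%. None of the 10 was at an unadjusted p of 0.05 by edgeR, beside 6.57% and 2.09% of genes higher. The 6 fibroblast markers summed to 11066 to 18817 CPM in male IR, 2408 to 3091 in female IR and 2534 to 3452 in sham scar zones, and *COL1A1* and *COL1A2*, fibrillar collagen genes, were there at 1.96 and 1.59 (unadjusted p of at most 0.05 by edgeR, adjusted p = 0.438), beside 2.74% of genes at that p and a fold of at least 2, and at 0.09 and -0.23 without male IR pigs. In border zones they summed to 2021 to 3710 CPM in male IR, 2531 to 3475 in female IR and 2410 to 3324 in sham pigs. The 6 dendritic markers listed summed to 28.2 to 35.01 CPM in male IR, 19.3 to 20.02 in female IR and 13.95 to 21.1 in sham scar zones, with *CD86*, a costimulatory molecule, at 1.09 (standard error 0.35, edgeR adjusted p = 0.438) and at 0.39 without male IR pigs. *ZBTB46* of the same list was at -0.61 (standard error 0.25, unadjusted p = 0.0341, edgeR adjusted p = 0.438). Border zones held 25.2 to 33.8, 13.99 to 18.7 and 14.2 to 21.3 CPM of dendritic and 40.2 to 63.02, 23.4 to 32.5 and 15.2 to 42.9 CPM of T cell markers. In pigs 9 and 11, 16.1 and 28.1 CPM of the dendritic border sum were *CD86*. In that zone 3 of the 6 dendritic genes were above 0 (median log2 fold change -0.15), with *FLT3*, *CCR7* and *ZBTB46* at -0.39, -0.49 and -0.53, against 5 of 6 for the scar (median 0.50). In scar zones, T cell markers (7 genes) gave 41.7 to 45.2, 29.2 to 34.2 and 13.4 to 42.3 CPM, and B cell markers (6 genes) 12.4 to 13.9, 11.6 to 17.7 and 6.89 to 12.2 CPM in the same order. The pan-leucocyte gene *PTPRC* gave 40.5 to 53.3, 23.2 to 36.3 and 10.7 to 40.9 CPM, endothelial markers (6 genes) 836 to 982, 998 to 1150 and 1016 to 1151, and cardiomyocyte markers (7 genes) 56682 to 70003, 74977 to 77387 and 66521 to 93462. In border zones the CPM sums, again for male IR, female IR and sham pigs, were 9.16 to 10.4, 7.54 to 9.02 and 7.54 to 13.3 for B cell, 853 to 1050, 939.7 to 1156 and 1046 to 1198 for endothelial and 71672 to 92036, 75633 to 80771 and 68612 to 86238 for cardiomyocyte markers, and *PTPRC* was at 31.5 to 60.5, 22.6 to 33.2 and 12.5 to 44.98 CPM. No marker listed was at 0 in all libraries of a group. The part of these cell types in the members' values was not tested.

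In the RefSeq gene table of assembly Sscrofa11.1, 26 of the 27 members matched and 10 of them lie on chromosome 7. The protein-coding genes *SLA-DOB*, *TAP2*, *PSMB8*, *TAP1*, *PSMB9*, *BRD2*, *SLA-DMB*, *SLA-DMA* and *SLA-DOA* follow each other there in this order, so transporter, immunoproteasome and class II genes are neighbours. Among them *PSMB8*, *TAP1*, *PSMB9*, *SLA-DMB* and *SLA-DMA* were highest in IR pig 11 and *SLA-DOA* in pig 9, in both zones. The share of all genes highest in these pigs was not counted, so no link to their position was tested.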

How the data were processed

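The authors made stranded polyA-selected libraries from left ventricular tissue, and the submitters' processing notes name Trimmomatic 0.33, HISAT2 2.0.5 and kallisto 0.43.1. The genome build is not given in the sources used here. The deposited estimated counts are unscaled and may be fractional, because kallisto divides reads shared by transcripts. The deposited TPM values were scaled by the authors for transcript length and library size. Groups came from the sample labels.

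The members and lists were chosen with earlier results of these data known. Estimated counts were rounded and tested with the quasi-likelihood method of edgeR 4.0.16 (R 4.3.3) after TMM scaling and filterByExpr (minimum count 10, minimum total 15). Adjusted p-values are Benjamini-Hochberg values across the whole table of each fit. All 27 members passed the filter in both zones. IR was compared with sham within each zone (4 pigs against 4), and zones and their interaction in a fit of all 16 libraries. Exact permutation tests were two-sided, on log2 CPM (prior count 2). For IR against sham within a zone, p-values measure the spread between these pigs. The fit of all 16 libraries counts the zones of a pig as separate samples, and the fit with the pig as a block uses the spread within pigs. Per-pig values were given by rule for ENSSSCG00000001231, *SLA-5*, *B2M*, *TAP1*, *NLRC5*, *CD74*, *CIITA*, and the 3 class II SLA symbols and 3 processing genes with the lowest unadjusted p in the scar zone, and those of *SLA-DQB1* and *PSMB9* were added after they were seen. Of the lists, genes at an unadjusted p of at most 0.05 and a fold of at least 2 were named, except for an item that is not reported here.

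The labels name each pig, so both zones of a number come from the same animal, and deviations from the group means correlated between zones in each pig (r = 0.354 to 0.692 over 14278 genes). Alternatives were DESeq2 1.42.0, upper-quartile scaling, no filter, sex as a covariate, 1 factor of unwanted variation from 5000 control genes, limma 3.58.1 on log2(TPM + 1) or log2(TPM + 0.1) for genes reaching a TPM of 1 in 4 or more libraries, 1 fit of all libraries, the pig as a block, other thresholds, and leaving out each pig. Thinning and leaving out pigs 9 and 11 were added after seeing the data. A count of 3 corresponds to 0.0612 to 0.194 CPM in these libraries, which limits low genes. The tests were checked on simulated counts.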

Additional observations from a re-analysis of the deposited data

Results flagged for a closer look

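In each group of 4 pigs, the gap between the highest or lowest CPM of a member and the next pig was set against the range of the group (Dixon's test). Of 108 groups looked at, 6 held a pig beyond the critical value, and chance gives about 1 in 20 groups. *SLA-5* stood out in the sham border zone, where pig 5 was at 5.06 CPM and the next pig at 1.75. *TAP1* stood out in the IR border zone, where pig 11 was at 305 CPM and the next pig at 91.4, and in the sham border zone, where pig 5 was lowest at 27.98 CPM and the next pig at 53.7. Pig 11 also stood out for *TAPBP* in the IR scar zone, at 135 CPM against 77.4 in the next pig, and for *PDIA3* in the IR border zone, at 322 CPM against 236. *PSME1* stood out in the sham border zone, where pig 4 was at 109 CPM and the next pig at 64.6.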

How the results depend on the processing

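For the 11 genes given per pig by rule, apart from ENSSSCG00000001231 and *SLA-5*, 411 of 418 log2 fold changes under the alternatives kept their direction. The other 7 came from leaving out pigs 9 and 11, where *B2M* (border) was at -0.0910, *NLRC5* at -0.0088 (scar) and -0.0967 (border), *SLA-DMA* at -0.1236 and *SLA-DOA* at -0.1190 (border), and *IFI30* at -0.0350 (scar) and -0.1228 (border). The count of members higher in the scar zone at an unadjusted p of at most 0.05 and a fold of at least 2, 3 by edgeR, was 0 with 1 factor of unwanted variation, 1 by limma under each of the 3 TPM settings, 0 without pigs 9 and 11, 10 with no fold threshold and 0 with the adjusted p. The border zone count, 2 by edgeR, was 1 with sex as a covariate, 1 with the factor, 0 by limma on log2(TPM + 1) with or without a filter, 1 on log2(TPM + 0.1), 0 without pigs 9 and 11, 4 with no fold threshold and 0 with the adjusted p. Leaving out each pig gave 0 to 5 (scar) and 0 to 3 (border), the pigs being named in the report. The cause was not tested. With the pig as a replicate block, 0 members passed at a fold of at least 2 in any zone comparison, as without it. On the TPM scale (limma, log2(TPM + 1)) the scar zone median was 0.15 over all genes and 0.69 over the 25 members. The TPM ratio of the sum of ENSSSCG00000001231 and *SLA-5*, 5.19 (scar) and 5.32 (border), was 4.21 and 4.97 in CPM. A correlation among class I symbols and a class I sum without the chosen entries were planned and not run, since *SLA-5* is the sole class I SLA symbol listed.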
